A study of Mus musculus with 8 samples.

Results

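The genes described here encode carriers of inorganic ions, phosphate and carboxylates, together with adaptor proteins that share their names. They were taken by gene symbol as all members of the solute carrier (Slc) families 4, 8, 9, 12, 13, 20, 26, 30, 34 and 39 on the array, which gave 70 of 18120 gene symbols, read by 114 of 25697 probes. The rule used names only and no measured value. It also took in *Slc9a3r1* and *Slc9a3r2*, which encode the adaptors NHERF1 and NHERF2, and *Slc4a1ap*, which are not carriers.

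Glomeruli were isolated from FVB/N mice, the strain in which loss of *Cd151* leads to glomerular disease, and their RNA was hybridised to Illumina MouseRef-8 v1.1 BeadChips, where a probe's signal is an average over many beads. The 2 groups were male mice of 3 weeks of age, 4 of genotype Cd151+/+ and 4 of genotype Cd151-/-, with 1 mouse per array and no further treatment or allele in the labels. *Cd151* encodes a tetraspanin of the podocyte surface. Its brightest probe read 14.37 ± 0.24 in Cd151+/+ and 4.57 ± 0.08 in Cd151-/- glomeruli (mean ± SD of normalised log2 signal, n = 4 each), at least 523-fold lower when set against the lowest signal that counted as detected, and none of its 3 probes was detected in a Cd151-/- mouse. The glomeruli had been loaded with magnetic beads through the circulation and washed on a magnet until, by the study's methods, nearly all structures were glomeruli. The podocyte markers *Podxl* and *Wt1* were detected on all 8 arrays, and so were the thick limb marker *Umod* and the proximal tubule marker *Miox*, listed on the array under its older symbol *Aldrl6*.

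The glomerulus filters plasma, and the tubule behind it recovers most of the filtered salt, phosphate, bicarbonate, citrate and sulphate through carriers of these families. In the proximal tubule the sodium-phosphate cotransporters of family 34 work at the brush border and the sodium-carboxylate cotransporters of family 13 at the brush border or the basolateral membrane, the thick limb and distal tubule take up salt with chloride through family 12, and intercalated cells of the collecting duct move acid and base through families 4 and 26. Families 30 and 39 carry zinc out of and into the cytosol, family 8 exchanges sodium for calcium, and several family 9 exchangers serve pH balance in nearly every cell.

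The arrays fell into 2 sets by their background brightness, which was inferred from the detection p-values. Cd151+/+ mice 1 and 2 and Cd151-/- mice 3 and 4 were on arrays with lower background (59.0 to 69.5 intensity units), and Cd151+/+ mice 3 and 4 and Cd151-/- mice 1 and 2 on arrays with higher background (123 to 135). Each set held 2 mice of each genotype, so every difference was also taken within each set. The columns name no slide or scan. Between 11291 and 12359 probes were detected per array at a detection p-value of 0.05 or lower. Of the 70 members, 38 to 45 were detected on a given array.

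Of the 70 members, 49 were detected on at least 1 array and tested, through 75 probes, and 34 of them were detected on all 8 arrays. The 21 members that no array detected were *Slc4a10*, *Slc4a11*, *Slc8a2*, *Slc8a3*, *Slc9a7*, *Slc9a9*, *Slc9a10*, *Slc12a5*, *Slc13a1*, *Slc20a1*, *Slc26a2*, *Slc26a3*, *Slc26a8*, *Slc26a9*, *Slc26a11*, *Slc30a3*, *Slc30a4*, *Slc30a10*, *Slc34a2*, *Slc39a8* and *Slc39a10*. Among them were *Slc13a1*, the sodium-sulphate cotransporter of the proximal tubule, and *Slc34a2*, the intestinal and lung sodium-phosphate cotransporter. *Slc9a3*, the brush-border sodium-proton exchanger, was not analysed here because the table used has no row under that symbol.

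No promoter measurement was made in this series, and the start of 3 members is shown only to let a reader see which letters they hold. RefSeq promoter windows of assembly GRCm38.p6, each from 250 bases before to 50 bases after an annotated start, were found for 53 of the 70 members, 69 windows in all. Both strands were searched for GTTAAT, a half-site bound by HNF1 factors of the proximal tubule, for CAAAGTCCA, a site bound by HNF4A, and for TATAAA, the TATA box. GTTAAT lay in 4 of the 69 windows, those of *Slc12a8*, *Slc26a3*, *Slc34a1* and *Slc39a5*, against 7.1% of all 32851 windows. TATAAA lay in 12 of 69, against 13.6% of all windows, and CAAAGTCCA in 1 of 69, that of *Slc30a3*, against 0.475%. *Slc34a1* and *Slc13a2* are shown as phosphate and carboxylate carriers of the brush border, and *Slc39a5* as a zinc carrier that, like *Slc13a2*, was lowest in Cd151+/+ mice 1 to 3. Capitals mark GTTAAT or TATAAA on either strand, so that ATTAAC and TTTATA are the same motifs read from the other strand.
Slc34a1, chr13:55399398-55399697, plus strand: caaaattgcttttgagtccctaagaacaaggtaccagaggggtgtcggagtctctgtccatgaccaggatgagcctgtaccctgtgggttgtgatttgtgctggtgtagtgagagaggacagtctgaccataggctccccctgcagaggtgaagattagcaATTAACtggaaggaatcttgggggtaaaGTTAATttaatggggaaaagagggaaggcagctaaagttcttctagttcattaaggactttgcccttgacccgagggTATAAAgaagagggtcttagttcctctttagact
Slc13a2, chr11:78422185-78422484, minus strand: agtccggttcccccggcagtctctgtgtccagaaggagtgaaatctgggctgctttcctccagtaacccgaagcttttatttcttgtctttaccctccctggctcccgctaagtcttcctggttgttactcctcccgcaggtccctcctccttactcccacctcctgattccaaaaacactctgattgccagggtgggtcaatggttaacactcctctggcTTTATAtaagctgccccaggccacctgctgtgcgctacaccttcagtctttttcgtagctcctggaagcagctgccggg
Slc39a5, chr10:128400417-128400716, minus strand: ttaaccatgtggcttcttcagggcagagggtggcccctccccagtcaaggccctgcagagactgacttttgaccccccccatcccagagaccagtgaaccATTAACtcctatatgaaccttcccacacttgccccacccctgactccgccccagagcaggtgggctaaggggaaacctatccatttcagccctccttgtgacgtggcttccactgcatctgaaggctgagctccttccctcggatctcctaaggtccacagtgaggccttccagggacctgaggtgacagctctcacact
The *Slc34a1* window held GTTAAT in both orientations, at 89 and 61 bases before the start, with TATAAA 16 bases after it. The *Slc13a2* window held TATAAA on the other strand, 29 bases before the start. The *Slc39a5* window held GTTAAT on the other strand, 150 bases before the start, and a second *Slc39a5* start in the same table held none of the 3 motifs. These are matches of letters, and no binding was measured. The median GC content of member windows was 58.7%, with 14 CpG, and that of all windows was 52.7%, with 7 CpG. The 11 windows of members placed in the proximal tubule had a median GC content of 56.0% and 8 CpG, or 55.2% and 6 CpG over 10 windows without that of the adaptor gene *Slc9a3r1*.

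Over the 49 tested members, with 1 probe per gene, the one brightest over all mice, differences lay about evenly on both sides of 0. The difference Cd151-/- minus Cd151+/+ had a median of 0.02 on the log2 scale and ranged from -0.67 to 1.68, with 26 positive and 23 negative differences. *Slc9a4*, *Slc30a8*, *Slc39a1* and *Slc39a4* were detected in 1 genotype only, and among the 45 members detected in both, 23 were positive and 22 negative, with a median of 0.01. Over all 11240 genes tested the median was -0.0018, and 49.7% of differences were positive. At an unadjusted p of 0.05 in limma's moderated test, 1 of 49 members was higher, *Slc13a2*, against 1.90% of all genes, and 1 of 49 was lower, *Slc26a7*, against 2.47%, so that 2 of 49 passed in either direction, against 4.37%. Of the 75 member probes 4 did, against 4.30% of all probes. No member passed Benjamini-Hochberg adjustment over all tested probes at 0.05, against 0.0267% of all genes. In no member did the brightest probe separate the groups, against 2.27% of all genes, 0.925% higher and 1.34% lower. Only the 3 family 13 members *Slc13a2*, *Slc13a3* and *Slc13a4* differed by more than 1 on the log2 scale, against 1.61% of all genes. The shares at an unadjusted p of 0.05 were thus near those over all genes. With the arrays scaled to a common 75th percentile 1 member was higher and 0 lower, and without background correction 0 were higher and 1 lower, *Slc9a3r2* in place of *Slc26a7*. Significance analysis of microarrays (SAM), the method named by the study, run over all 70 relabelings, called 6 probes higher and 85 lower of 14967 at an FDR of 0.1975, and among the 75 member probes it called 1, a lower probe of *Slc9a3r2*.

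**Figure D1:**
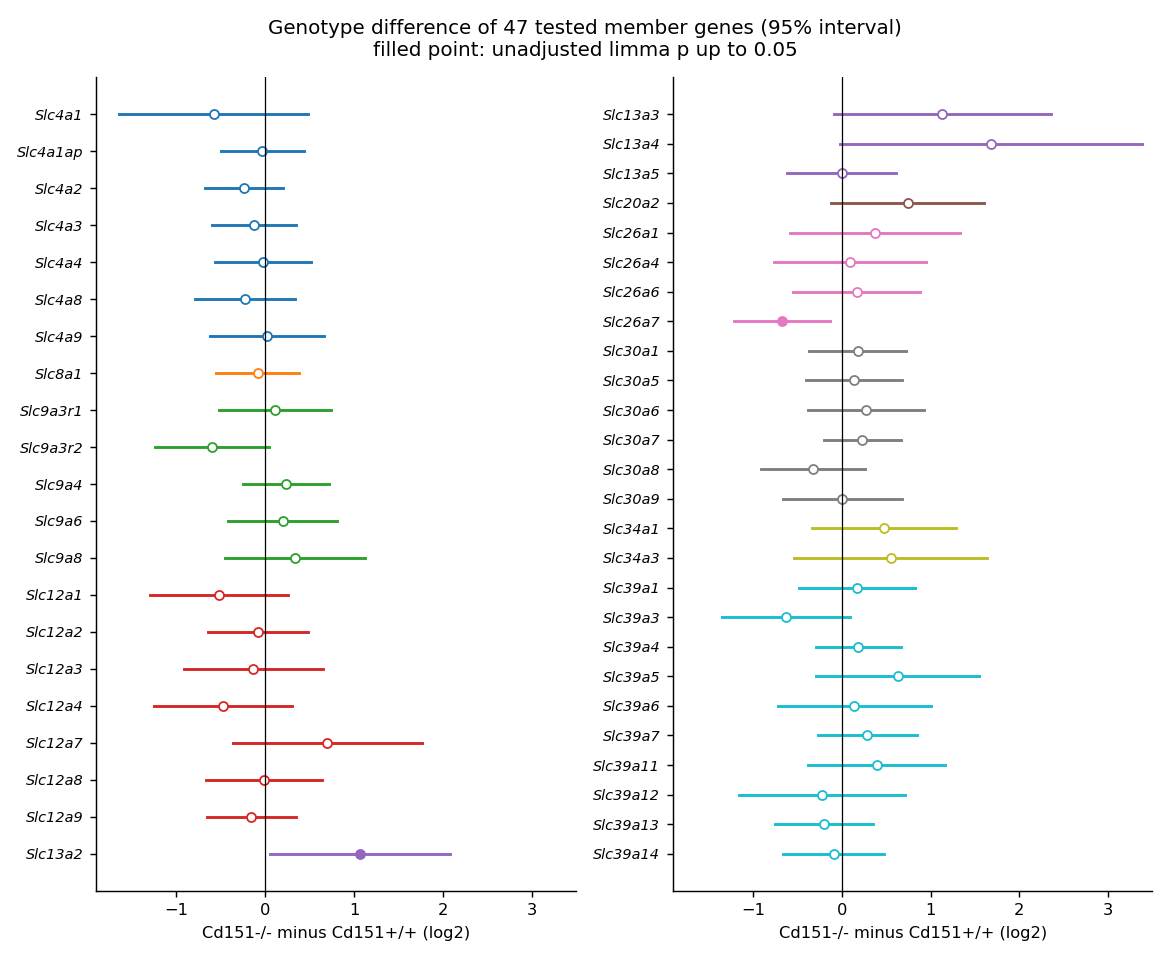
Difference in normalised log2 signal, Cd151-/- minus Cd151+/+, for 47 of the 49 tested members (points, 1 probe per gene, coloured by family) with the 95% interval from limma (lines). Filled points mark the 2 members at an unadjusted p of 0.05 or lower, *Slc13a2* and *Slc26a7*, and all other intervals drawn reach across 0.

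Family 13, the carriers of di- and tricarboxylates and sulphate, had a median difference of 1.1 over 4 tested members, which ranged from 0.76 to 1.6 with 1 mouse left out at a time. The single tested phosphate carrier of family 20 was at 0.74. It was below the family 13 median as reported, but above it without Cd151-/- mouse 4 (0.88 against 0.76) and with array weights (1.38 against 1.29). The 2 tested phosphate carriers of family 34 had a median of 0.51, or 0.24 without Cd151+/+ mouse 1. Medians were 0.16 for family 9 (6 members), 0.13 for family 26 (4 members), 0.16 for the zinc exporters of family 30 (6 members) and 0.16 for the zinc importers of family 39 (10 members). Over members detected in both genotypes these medians were 0.11 for family 9 (5 members), 0.18 for family 30 (5 members) and 0.025 for family 39 (8 members, 4 positive and 4 negative), since *Slc39a1* and *Slc39a4* had entered only through Cd151-/- mice. Without Cd151-/- mouse 4 the median was 0.0013 for family 9 and -0.07 for family 26, and without Cd151-/- mouse 2 it was -0.017 for family 39. For family 30 it ranged from 0.09 (without Cd151+/+ mouse 3) to 0.23 (without Cd151+/+ mouse 1), and was 0.015 with array weights. Families with a negative median were family 4, at -0.13 over 7 members and -0.18 over its 6 bicarbonate transporters without *Slc4a1ap*, family 8 at -0.08 for its single member *Slc8a1*, and family 12, the cation-chloride cotransporters, at -0.11 over 8 members, of which 7 were negative. With 1 mouse left out these medians stayed negative but moved, from -0.22 to -0.046 for family 4, -0.20 to -0.0069 for family 8 and -0.23 to -0.036 for family 12.

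The phosphate carriers were all read higher on average in Cd151-/- glomeruli, and none passed an unadjusted p of 0.05 with all 8 mice weighted equally and no block. *Slc34a1*, the main sodium-phosphate cotransporter of the proximal brush border, read 13.28, 13.43, 14.61 and 14.75 in Cd151+/+ mice 1 to 4, and 15.02, 14.39, 14.10 and 14.47 in Cd151-/- mice 1 to 4. The 2 Cd151+/+ mice on arrays with lower background were the lowest of all 8, and the other 2 lay within the Cd151-/- range, so the groups overlapped. The difference was 0.48 (SE 0.37, limma p = 0.220, adjusted p = 0.918, exact permutation p = 0.314), and it was 0.93 on the arrays with lower background but 0.03 on those with higher background. *Slc34a3*, its lower-capacity relative in the same membrane, read 8.65, 8.84, 10.53 and 10.27 in Cd151+/+ mice, and 10.82, 9.54, 9.37 and 10.78 in Cd151-/- mice. Again Cd151+/+ mice 1 and 2 stood lowest and the groups overlapped. Its difference was 0.55 (SE 0.49, limma p = 0.288, exact permutation p = 0.400), made up of 1.33 on the lower-background arrays and -0.23 on the higher. With 1 mouse left out at a time the differences ranged from 0.23 (without Cd151+/+ mouse 1) to 0.72 (without Cd151+/+ mouse 4) for *Slc34a1*, and from 0.24 (without Cd151+/+ mouse 1) to 0.87 (without Cd151+/+ mouse 3) for *Slc34a3*. With array weights they were 1.03 and 1.18, past an unadjusted p of 0.05, in a fit where 15.4% of all genes were higher at that threshold.

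*Slc20a2*, the broadly expressed sodium-phosphate cotransporter PiT-2, differed by nearly the same amount in both array sets. It read 6.82, 7.07, 7.95 and 8.19 in Cd151+/+ mice, and 8.82, 8.80, 7.55 and 7.83 in Cd151-/- mice. Within each set both Cd151-/- mice stood above both Cd151+/+ mice, with a difference of 0.74 on the lower-background and 0.75 on the higher-background arrays. Pooled over the sets the groups overlapped, and the difference of 0.74 (SE 0.39) gave a limma p of 0.0833 and an exact permutation p of 0.171. It passed an unadjusted p of 0.05 when Cd151+/+ mouse 4 (0.97) or Cd151-/- mouse 3 (0.98) was left out, and leaving out Cd151+/+ mouse 1 gave 0.52. When limma took the array set as a block, *Slc20a2* was higher at an unadjusted p of 0.000902, with an adjusted p of 0.326. No member passed adjustment in that fit, in which 5.21% of all genes were higher at an unadjusted p of 0.05.

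With all 8 mice and the settings as reported, 3 carriers of family 13 had the largest differences among the members. *Slc13a2*, the sodium-dicarboxylate cotransporter NaDC1 that recovers citrate and succinate at the brush border, read 8.60, 8.15, 8.4 and 10.09 in Cd151+/+ mice, and 9.99, 9.86, 8.92 and 10.72 in Cd151-/- mice. Cd151+/+ mice 1 to 3 were below every Cd151-/- mouse, while Cd151+/+ mouse 4 was above 3 of the 4 Cd151-/- mice. *Slc13a2* was 2.09-fold higher in Cd151-/- glomeruli at an unadjusted limma p of 0.0414 (log2 difference 1.06, SE 0.46, 95% interval 0.05 to 2.08), with an adjusted p of 0.918 and an exact permutation p of 0.114. The difference was 1.45 within the lower-background and 0.68 within the higher-background arrays. It no longer passed an unadjusted p of 0.05 when any single mouse other than Cd151+/+ mouse 4 or Cd151-/- mouse 3 was left out, and its difference then ranged from 0.78 to 1.07. Leaving out Cd151+/+ mouse 4 gave 1.5. Without background correction it was 0.93 and no longer passed.

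*Slc13a3*, the basolateral sodium-dicarboxylate cotransporter NaDC3, read 8.76, 8.82, 8.86 and 10.98 in Cd151+/+ mice, and 10.02, 10.66, 9.60 and 11.68 in Cd151-/- mice. All 4 Cd151-/- mice stood above Cd151+/+ mice 1 to 3, and Cd151+/+ mouse 4 stood above 3 of the Cd151-/- mice. The difference was 1.13 (SE 0.55, limma p = 0.0655, exact permutation p = 0.20). It was 0.73 without Cd151-/- mouse 4, and passed an unadjusted p of 0.05 when Cd151+/+ mouse 4 (1.69) or Cd151-/- mouse 3 (1.43) was left out. Within the lower-background arrays it was 1.85 and within the higher-background arrays 0.42, and a second, dimmer probe gave 1.09 (exact permutation p = 0.286). *Slc13a4*, a sodium-sulphate cotransporter best known from placenta and brain and named here after its values were seen, read 4.77, 6.47, 7.05 and 7.03 in Cd151+/+ mice, and 8.37, 6.75, 6.63 and 10.30 in Cd151-/- mice. Cd151-/- mice 1 and 4 stood above every Cd151+/+ mouse, and the other 2 lay within the Cd151+/+ range. Its difference was 1.68 (SE 0.77, limma p = 0.0529, exact permutation p = 0.229), with 2.84 on the lower-background and 0.52 on the higher-background arrays. Without Cd151-/- mouse 4 it was 0.93. It passed an unadjusted p of 0.05 when Cd151-/- mouse 2 (2.07) or 3 (2.16) was left out. *Slc13a5*, the citrate cotransporter of liver, was detected in 1 mouse of each genotype and differed by -0.0007.

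**Figure D2:**
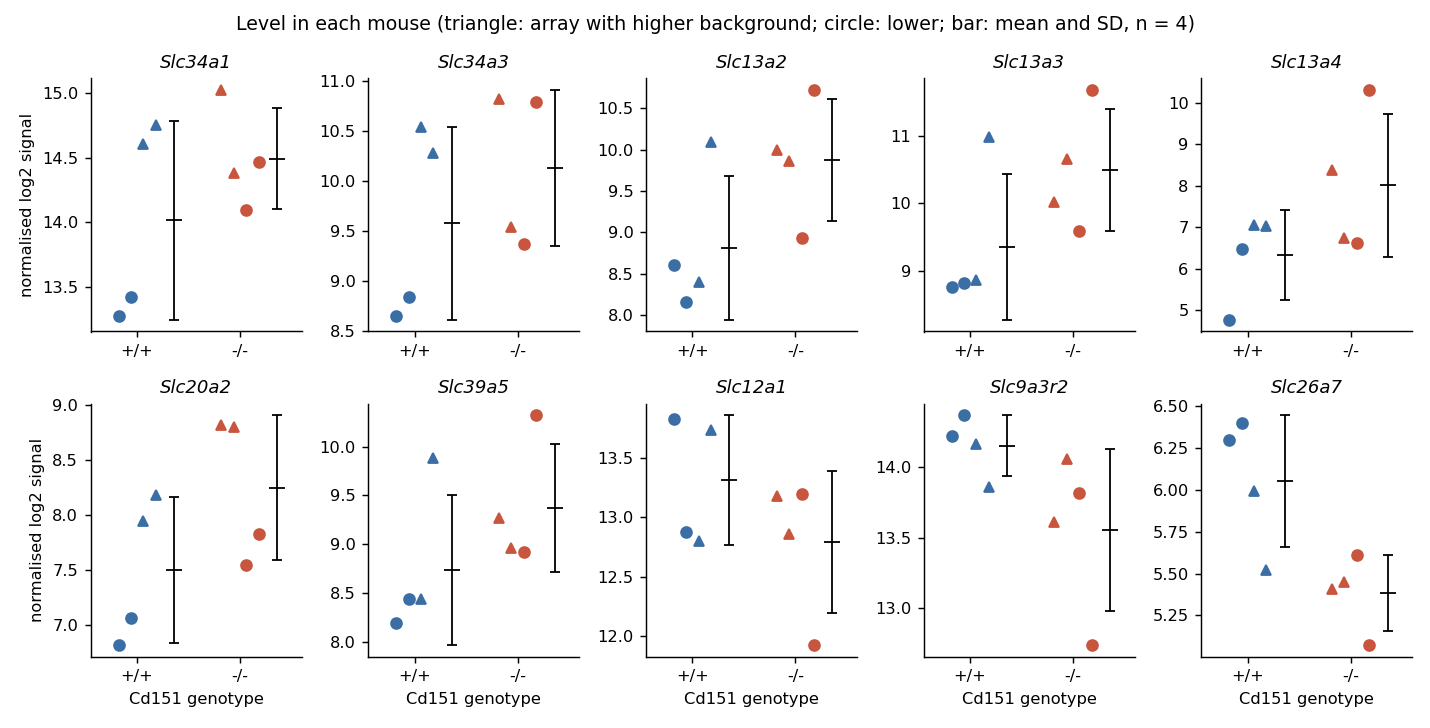
Normalised log2 signal of 10 members in each mouse, by *Cd151* genotype, with the mean and SD of 4 mice beside the points (vertical axes differ between panels). Triangles are arrays with higher background and circles arrays with lower background, and in *Slc34a1* and *Slc34a3* the 2 Cd151+/+ circles are the lowest points while in *Slc26a7* the 3 lowest values are all Cd151-/- mice.

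Among the anion exchangers of family 26, 1 of 4 tested members was lower at an unadjusted p of 0.05, where 2.47% of all genes were. *Slc26a7*, a chloride-bicarbonate exchanger of intercalated cells of the medullary collecting duct, read 6.30, 6.40, 5.99 and 5.52 in Cd151+/+ mice, and 5.41, 5.45, 5.61 and 5.07 in Cd151-/- mice. Cd151+/+ mouse 4 fell between the Cd151-/- mice and the groups overlapped by that mouse alone. *Slc26a7* was 1.59-fold lower in Cd151-/- glomeruli at an unadjusted limma p of 0.0200 (log2 difference -0.67, SE 0.25, 95% interval -1.21 to -0.13), with an adjusted p of 0.918 and an exact permutation p of 0.0571. It was close to background, being detected in 4 Cd151+/+ and 3 Cd151-/- mice. Without background correction the difference was -0.28 and no longer passed an unadjusted p of 0.05. The same held when Cd151+/+ mouse 1 (-0.61), Cd151+/+ mouse 2 (-0.58) or Cd151-/- mouse 4 (-0.58) was left out. Of the collecting duct markers 6 of 9 on the array were tested, with a median difference of 0.13 (-0.16 to 0.41 with 1 mouse left out) and none at an unadjusted p of 0.05, and *Atp6v1g3*, *Foxi1* and *Avpr2* were detected on no array. *Scnn1b*, the brightest of the list, differed by 0.15.

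The other family 26 members did not pass the test. *Slc26a1*, the basolateral sulphate-oxalate exchanger of the proximal tubule, read 5.92, 5.77, 6.43 and 7.32 in Cd151+/+ mice and 6.61, 6.14, 6.27 and 7.91 in Cd151-/- mice. Mouse 4 of each genotype was its highest, and the groups overlapped. Its difference of 0.37 (SE 0.43, exact permutation p = 0.486) was 1.24 within the lower-background arrays and -0.50 within the higher. *Slc26a4*, the chloride-bicarbonate exchanger pendrin of intercalated cells, differed by 0.09, and *Slc26a6*, a chloride-oxalate exchanger of the brush border, by 0.17. *Slc26a6* read 8.29, 8.23, 7.56 and 8.10 in Cd151+/+ mice, and 7.75, 7.66, 8.35 and 9.08 in Cd151-/- mice. Cd151-/- mouse 4 was the highest of all 8. The difference was 0.45 within the lower-background and -0.12 within the higher-background arrays, so its sign was not stable.

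Family 9 held the adaptor gene whose probe SAM called. *Slc9a3r2* encodes NHERF2, a scaffold with PDZ domains that binds sodium-proton exchanger 3 in tubule and podocalyxin in podocytes. Its brighter probe read 14.22, 14.37, 14.17 and 13.86 in Cd151+/+ mice, and 13.61, 14.06, 13.82 and 12.73 in Cd151-/- mice. Cd151+/+ mice 1 to 3 stood above every Cd151-/- mouse, and Cd151+/+ mouse 4 lay below Cd151-/- mouse 2. The difference was -0.60 (SE 0.29, limma p = 0.0638, exact permutation p = 0.0571), -1.02 on the lower-background and -0.18 on the higher-background arrays. The second probe (ILMN_1218241), the member probe called by SAM, read 10.45, 10.61, 10.29 and 9.77 in Cd151+/+ mice and 9.14, 9.40, 9.99 and 8.79 in Cd151-/- mice. Cd151-/- mouse 3 alone reached into the Cd151+/+ range. This probe was lower in Cd151-/- glomeruli at an unadjusted limma p of 0.00778 (difference -0.95, SE 0.29, adjusted p = 0.918, exact permutation p = 0.0571), by -1.14 and -0.76 within the 2 sets. With the mean over both probes *Slc9a3r2* differed by -0.77, which was past limma's unadjusted threshold.

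Podocyte markers were read beside it, because *Slc9a3r2* is expressed in podocytes. The markers *Podxl* and *Wt1* differed by -0.31 and -0.05, and neither passed the test. The median of both, -0.18, ranged from -0.47 (without Cd151-/- mouse 2) to 0.14 (without Cd151-/- mouse 4), was 0.03 without Cd151+/+ mouse 3 and 0.44 with array weights, so that its direction turned. Their mean deviation from the average of the 8 mice was -0.37, -0.44, 0.74 and 0.44 in Cd151+/+ mice, and 0.40, 0.77, -0.48 and -1.06 in Cd151-/- mice. Cd151+/+ mice 1 and 2 were below average for these markers but read highest for both *Slc9a3r2* probes. Cd151-/- mouse 4 was the lowest for these markers and for both probes. Without that mouse the *Slc9a3r2* difference was -0.32, and without Cd151-/- mouse 2 it was -0.78 and passed an unadjusted p of 0.05. The summed signal of both markers, of which *Podxl* was the brighter, was 5542 ± 1638 in Cd151+/+ and 4972 ± 1980 in Cd151-/- glomeruli (mean ± SD of linear signal, n = 4), and the part of podocyte content in the *Slc9a3r2* values was not tested. In bulk tissue of this kind, fewer cells of a type and less RNA per cell cannot be told apart.

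Further members of family 9 were read as follows. *Slc9a3r1*, the adaptor NHERF1 that anchors *Slc34a1* protein in the brush border, differed by 0.11 (SE 0.29, exact permutation p = 0.743). *Slc9a8*, an exchanger of intracellular membranes and brush border, had 4 tested probes, all with positive differences, of 0.34, 0.04, 1.08 and 0.18. The first, from its brightest probe, was 0.002 without Cd151-/- mouse 4, the highest mouse. A dimmer probe (ILMN_2595992) read 5.96, 5.12, 5.77 and 5.61 in Cd151+/+ mice and 6.36, 6.14, 6.31 and 7.98 in Cd151-/- mice, so that its groups did not overlap (limma p = 0.0181, adjusted p = 0.918, exact permutation p = 0.0286, the smallest that 4 against 4 mice can give). The brightest probe of the gene did overlap and gave a limma p of 0.366. *Slc9a8* was named after its values were seen.

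None of the 8 tested cation-chloride cotransporter members of family 12 passed the test. *Slc12a1*, the furosemide-sensitive cotransporter NKCC2 of the thick limb, read 13.83, 12.88, 12.80 and 13.74 in Cd151+/+ mice, and 13.18, 12.86, 13.20 and 11.92 in Cd151-/- mice. Cd151-/- mouse 4 was the lowest, and the other 7 values overlapped. The difference was -0.52 (SE 0.35, limma p = 0.166, exact permutation p = 0.257), or -0.23 without Cd151-/- mouse 4, and its 3 tested probes were all negative. *Slc12a3*, the thiazide-sensitive cotransporter of the distal convoluted tubule, differed by -0.13 (SE 0.36), and *Slc12a2*, the widely expressed NKCC1, by -0.08 (SE 0.25). The other tested probes of *Slc12a3* gave -0.24 and -0.69 (exact permutation p = 0.429 and 0.114). The 5 tested thick limb markers had a median difference of 0.04, which ranged from -0.31 to 0.40 with 1 mouse left out, and the 4 detected in both genotypes had a median of -0.25, with 2 positive and 2 negative. *Cldn16* differed by -0.67, *Cldn10* by 0.44 and *Egf* by 0.04, *Ptger3*, at 0.53, was detected in a single Cd151-/- mouse and in no Cd151+/+ mouse, and *Umod*, the most brightly read, differed by -0.54 (exact permutation p = 0.20), or -0.28 without Cd151-/- mouse 4 and -0.74, past an unadjusted p of 0.05, without Cd151+/+ mouse 3. The potassium-chloride cotransporter genes *Slc12a4* and *Slc12a7* differed by -0.47 and 0.70, and neither passed the test. Without Cd151+/+ mouse 1 they were at -0.23 and 0.35, and without Cd151+/+ mouse 4 *Slc12a7* was at 1.09 and passed an unadjusted p of 0.05.

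Of the 6 tested bicarbonate transporters of family 4, 5 were read lower on average, and none passed the test. *Slc4a1* encodes band 3, the anion exchanger of red cells and, in a shorter form, of acid-secreting intercalated cells. It read 9.22, 9.23, 9.06 and 9.56 in Cd151+/+ mice, and 8.63, 10.33, 8.28 and 7.51 in Cd151-/- mice. Cd151-/- mouse 2 was the highest of all 8 and the other 3 Cd151-/- mice the lowest, so that the SD was 1.19 in Cd151-/- against 0.21 in Cd151+/+ mice (n = 4 each). The difference was -0.58 (SE 0.48, exact permutation p = 0.40). It was -1.13 without Cd151-/- mouse 2, where it passed an unadjusted p of 0.05 in limma, and -0.18 without Cd151-/- mouse 4.

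Red-cell genes were read beside *Slc4a1*. Of 6 erythroid markers on the array 4 were tested, with a median of -0.36, which ranged from -0.85 without Cd151-/- mouse 2 to -0.23 without Cd151-/- mouse 1. The 3 detected in both genotypes had a median of -0.69. *Hbb-b1*, at -0.02, was detected in 1 Cd151-/- mouse and no Cd151+/+ mouse, *Spna1* was at -0.04, and *Epb4.2* and *Ermap* were detected on no array. *Alas2*, which starts haem synthesis in erythroid cells, read 9.16, 9.80, 9.29 and 10.31 in Cd151+/+ mice and 6.03, 9.68, 7.08 and 5.49 in Cd151-/- mice. Cd151-/- mouse 2 was again the highest of its group and within the Cd151+/+ range. *Alas2* was lower at an unadjusted limma p of 0.00519 (difference -2.57, SE 0.74), as was *Hba-a1*, the alpha-globin gene and brightest of the list, at an unadjusted limma p of 0.0276 (difference -0.69, SE 0.27), each with an adjusted p of 0.918. Their exact permutation p-values were 0.0857 and 0.0571, and *Hba-a1* no longer passed an unadjusted p of 0.05 when Cd151+/+ mouse 1 or 2 or Cd151-/- mouse 1 or 4 was left out. With 1 mouse left out at a time the *Alas2* difference ranged from -3.42 to -2.04. Over the alternatives run its limma adjusted p ranged from 0.014, which is past 0.05, to 0.9999. The part of red-cell RNA in the *Slc4a1* values was not tested. *Slc4a4*, the sodium-bicarbonate cotransporter of the proximal tubule, was detected in 2 Cd151+/+ mice and 1 Cd151-/- mouse and differed by -0.02. *Slc4a9*, an anion exchanger of intercalated cells, was detected in 2 and 3 mice and differed by 0.02. *Slc4a2*, the anion exchanger AE2 of many epithelia, differed by -0.24 (SE 0.20).

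Zinc carriers gave no member past the test. *Slc39a3*, the plasma-membrane zinc importer ZIP3, read 8.12, 8.24, 7.29 and 7.54 in Cd151+/+ mice, and 6.85, 7.69, 7.61 and 6.50 in Cd151-/- mice. The groups overlapped, with the Cd151+/+ mice on lower-background arrays above all other mice. Its difference was -0.63 (SE 0.33, exact permutation p = 0.171), and its other tested probe went the other way, at 0.18. Without Cd151-/- mouse 4 the *Slc39a3* difference was -0.41, and it passed an unadjusted p of 0.05 when Cd151+/+ mouse 3 (-0.80) or Cd151-/- mouse 2 (-0.81) or 3 (-0.78) was left out. *Slc39a5*, a zinc importer of the basolateral membrane in intestine, pancreas and kidney, named after its values were seen, read 8.19, 8.43, 8.44 and 9.88 in Cd151+/+ mice, and 9.27, 8.96, 8.92 and 10.32 in Cd151-/- mice. Cd151+/+ mice 1 to 3 stood below every Cd151-/- mouse and Cd151+/+ mouse 4 above 3 of them, as for *Slc13a3*. The difference was 0.63 (SE 0.42, exact permutation p = 0.314), 1.31 within the lower-background and -0.05 within the higher-background arrays, and 1 of its 4 tested probes went the other way. It was 0.31 without Cd151-/- mouse 4, and 1.02 without Cd151+/+ mouse 4, where it passed an unadjusted p of 0.05 in limma. *Slc30a8*, the zinc exporter of insulin granules, was detected in 2 Cd151+/+ mice and no Cd151-/- mouse, and differed by -0.33 (SE 0.27, exact permutation p = 0.229). Leaving out Cd151+/+ mouse 1 gave -0.55, leaving out Cd151+/+ mouse 2 gave -0.21, and omitting the background correction gave -0.15. The tested members of family 30 spanned -0.33 to 0.27 and those of family 39 spanned -0.63 to 0.63. *Slc8a1*, the sodium-calcium exchanger NCX1 of distal tubule and vascular muscle, differed by -0.08 (SE 0.21, exact permutation p = 0.571).

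Members were also grouped by the tubule segment where they are known to work. Of 10 members of the proximal tubule 9 were tested, *Slc4a4*, *Slc9a3r1*, *Slc9a8*, *Slc13a2*, *Slc13a3*, *Slc26a1*, *Slc26a6*, *Slc34a1* and *Slc34a3*, and 8 of the 9 had positive differences, with a median of 0.37. Leaving out Cd151-/- mouse 4 gave a median of 0.002, leaving out Cd151+/+ mouse 1 gave 0.24, and leaving out Cd151+/+ mouse 4 gave 0.68. Without the adaptor gene *Slc9a3r1*, 7 of the 8 carriers were positive, with a median of 0.43. The mean deviation of the 9 members from the average of the 8 mice was -0.58, -0.57, -0.29 and 0.51 in Cd151+/+ mice 1 to 4, and 0.19, 0.07, -0.24 and 0.91 in Cd151-/- mice 1 to 4. The 9 proximal tubule markers that are not members and were detected in both genotypes deviated by -1.26, -0.65, -0.16 and 0.31, and by 0.75, -0.07, -0.11 and 1.19. Both lists were lowest in Cd151+/+ mice 1 and 2 and highest in Cd151-/- mouse 4, and in neither did the genotypes separate.

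**Figure D3:**
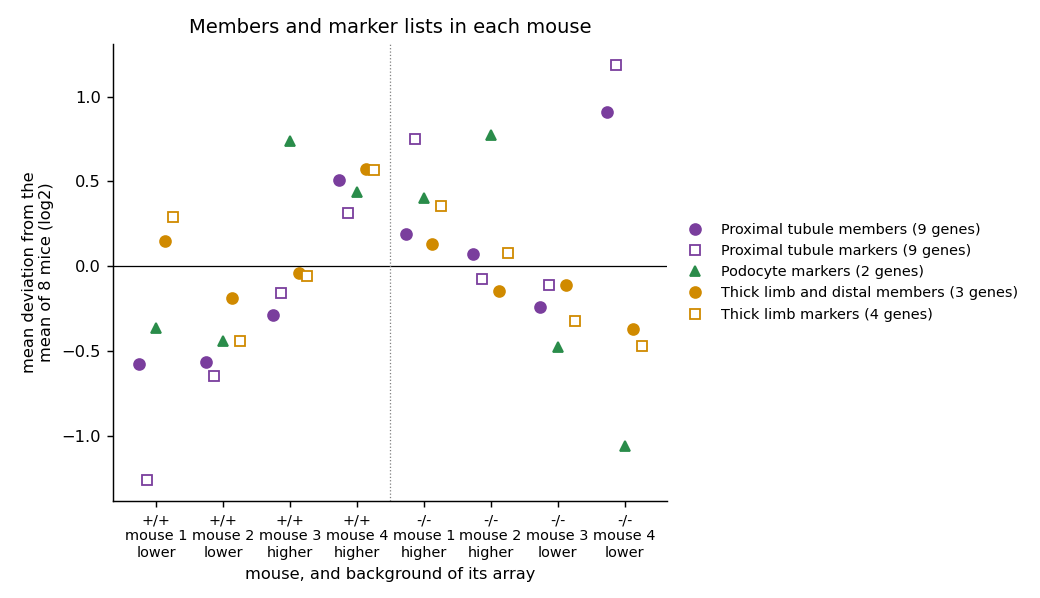
Mean deviation of each list from the average of the 8 mice (vertical axis, log2 scale) in each mouse, with the background of its array under the mouse's name. Filled circles are members and open squares tubule markers detected in both genotypes, and for the proximal tubule both stand lowest in Cd151+/+ mice 1 and 2 and highest in Cd151-/- mouse 4, where the podocyte markers (triangles) are lowest.

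The proximal tubule markers were themselves higher on average in Cd151-/- glomeruli. Of 15 listed, 13 were on the array and 12 tested, with a median difference of 0.70. *Lrp2*, *Pck1* and *Gatm* were detected in no Cd151+/+ mouse and so entered only through Cd151-/- mice. The other 9 all had positive differences, with a median of 0.78, which was 1.47 within the lower-background and 0.10 within the higher-background arrays. At an unadjusted limma p of 0.05, 2 of these 9 were higher, against 1.90% of all genes, *Kap*, an androgen-regulated proximal tubule gene, by 1.38 (SE 0.57, adjusted p = 0.918, exact permutation p = 0.0857, 0.76 without Cd151-/- mouse 4) and *Slc22a8*, an organic anion transporter, by 1.45 (SE 0.32, limma adjusted p = 0.744, exact permutation p = 0.0286). *Kap* no longer passed an unadjusted p of 0.05 without background correction, or when Cd151+/+ mouse 1, 3 or 4 or Cd151-/- mouse 4 was left out. *Slc22a8* was detected in 1 Cd151+/+ mouse and all 4 Cd151-/- mice, and its groups did not overlap. Its difference was 1.47 and 1.43 within the 2 sets, and it was 0.68 without background correction and 0.87 with an offset of 50. The summed linear signal of the 9 markers, led by *Miox*, was 13118, 20414, 26304 and 41762 in Cd151+/+ mice, and 45965, 27150, 28726 and 64851 in Cd151-/- mice. For the 9 members it was 14364, 15100, 29371 and 36637, and 40456, 27974, 22092 and 34168. The part of proximal tubule content in the members' differences was not tested.

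Members of later segments were read in the same way. The 3 members placed in the thick limb and distal tubule, *Slc8a1*, *Slc12a1* and *Slc12a3*, all had negative differences, with a median of -0.13. In that order these members differed by -0.03, -0.67 and -0.36 without Cd151+/+ mouse 2, and by -0.10, -0.38 and -0.04 without Cd151+/+ mouse 4. Their mean deviations were 0.15, -0.19, -0.04 and 0.58 in Cd151+/+ mice, and 0.13, -0.15, -0.11 and -0.37 in Cd151-/- mice. Cd151+/+ mouse 4 was high for proximal and for later members alike, while Cd151-/- mouse 4 was the highest for the proximal and the lowest for the later members. The 4 members of intercalated cells, *Slc4a8*, *Slc4a9*, *Slc26a4* and *Slc26a7*, had a median of -0.10, with 2 positive and 2 negative. Their mean deviations were 0.16, -0.02, 0.01 and 0.24 in Cd151+/+ mice, and 0.14, 0.02, 0.08 and -0.63 in Cd151-/- mice. Only Cd151-/- mouse 4 stood far below the others, so the negative median rested largely on that mouse.

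Within the 2 sets of arrays the members of the proximal tubule were read separately. Their median difference was 0.93 on the arrays with lower background and 0.03 on those with higher background, or 1.09 and -0.05 over the 8 carriers alone, whereas the median over all 49 members was 0.02 and 0.01. With 2 mice of each genotype in a set, no test was made within a set. *Slc13a2*, *Slc13a3* and *Slc20a2* were positive in both sets, and *Slc9a3r2* and *Slc26a7* negative in both, while *Slc34a3*, *Slc26a1* and *Slc39a5* were positive in the lower-background set and negative in the other.

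**Figure D4:**
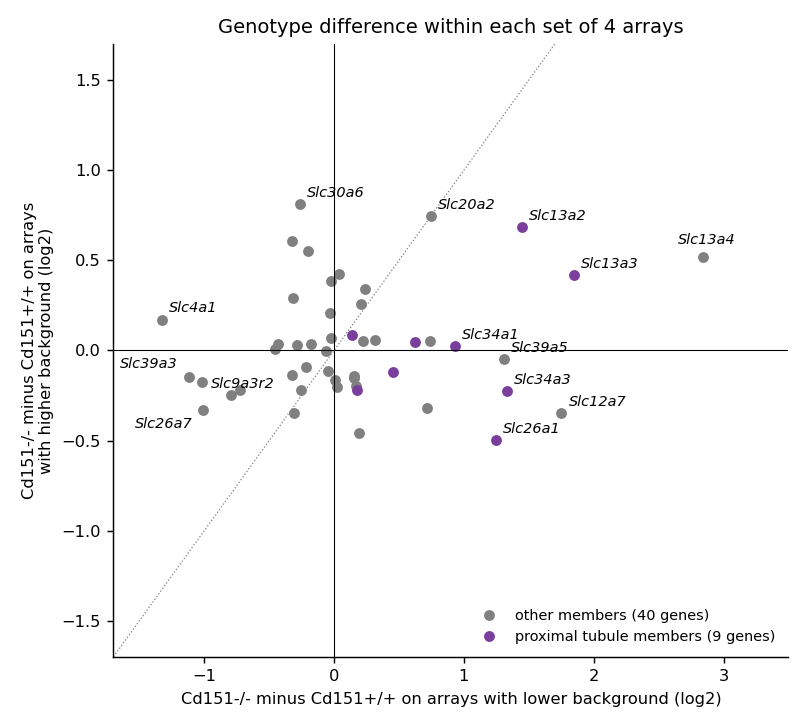
Genotype difference of each of the 49 tested members on the 4 arrays with lower background (horizontal axis) and on the 4 with higher background (vertical axis), in normalised log2 signal. The dotted line marks equal differences, and *Slc20a2* lies on it, while *Slc34a1*, *Slc34a3*, *Slc26a1* and *Slc39a5* lie to the right with values near or below 0 on the vertical axis.

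Regulators and partners of these carriers, 45 on the array of 48 listed, were read to set the carriers in their pathways. Of 41 tested, 23 had positive and 18 negative differences, with a median of 0.06, and at an unadjusted limma p of 0.05 none was higher, against 1.90% of all genes, and 1 was lower, against 2.47%. That gene was *Stc2*, stanniocalcin 2, a secreted protein linked to phosphate and calcium handling, which read 9.29, 9.13, 9.11 and 9.29 in Cd151+/+ mice and 8.68, 8.37, 9.25 and 7.96 in Cd151-/- mice. Only Cd151-/- mouse 3 lay within the Cd151+/+ range. *Stc2* differed by -0.64 (SE 0.27, limma p = 0.0380, adjusted p = 0.918, exact permutation p = 0.0857), and it no longer passed an unadjusted p of 0.05 when any single mouse other than Cd151-/- mouse 3 was left out. The 10 phosphate regulators had a median of 0.12, the 16 regulators of cation-chloride and sodium transport -0.08, the 11 acid-base genes 0.34 and the 4 zinc genes 0.01, or 0.09 over the 3 detected in both genotypes. On the lower-background arrays the medians of these lists were, in that order, 0.35, -0.09, 0.62 and 0.16. On the higher-background arrays they were -0.10, -0.07, 0.06 and -0.13. *Pdzk1*, the scaffold that holds *Slc34a1* protein at the brush border, read 12.13, 12.39, 13.32 and 13.94 in Cd151+/+ mice and 14.10, 13.52, 12.82 and 14.03 in Cd151-/- mice, with Cd151+/+ mice 1 and 2 again the lowest. Its difference was 0.67 (SE 0.42, exact permutation p = 0.20), and 0.40 without Cd151+/+ mouse 1. It passed an unadjusted p of 0.05 when Cd151+/+ mouse 4 (1.00) or Cd151-/- mouse 3 (0.94) was left out, and with array weights (1.22).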

How the data were processed

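Signals of 8 Illumina arrays, 4 mice per genotype, were used. The authors deposited a table of signal intensity per probe, with neither background subtraction nor normalisation, exported from GenomeStudio, and with every signal its detection p-value. In R 4.3.3, limma 3.58.1 used those p-values to estimate the background of an array, corrected it by normexp (offset 16) before quantile normalisation, and fitted the genotypes on the log2 scale with lmFit and eBayes. A probe entered the test if any array detected it (detection p-value at most 0.05), and p-values were adjusted over all 14967 such probes by the Benjamini-Hochberg method. A gene was represented by its brightest tested probe. Single members were also compared by two-sided exact permutation over the 70 relabelings of 4 against 4 mice. SAM was written out in R. The limma fit and SAM were tested on simulated data, and the exact permutation test on cases with known answers.

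The members, marker lists and partner lists were chosen with earlier results of these data known, as were the array sets by background and the tubule segment given to each carrier. Members are named where the unadjusted p was 0.05 or lower, the groups did not overlap, the p was the smallest of a family, or the gene is a textbook renal carrier, together with the brightest gene of each marker list and partner genes at an unadjusted p of 0.05 or lower. Further genes were named after their values were seen. Array symbols were matched to RefSeq gene names of assembly GRCm38.p6, where 12036 of 18120 stood as current symbols, and list genes with older symbols were found through synonyms. Alternatives were no background correction, an offset of 50, a cubic spline fitted to 15 quantiles, a common 75th percentile, 2 other detection filters, a trended and robust variance, array weights, the mouse number or the array set as a block, the mean over probes, an equal-variance test, SAM and each mouse left out in turn. Signals of detected probes were 3.00 to 4.46 times the background at the median, which with the number of arrays limits the precision. The mice are separate animals. Values of a few members and marker genes are not reported here, and such markers were left out of their lists. Real-time PCR and protein experiments of the study were not analysed here.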

Additional observations from a re-analysis of the deposited data

Results flagged for a closer look

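In 3 members 1 mouse stood apart from the other 3 of its genotype, with a gap to the nearest mouse that exceeded Dixon's 95% critical share of the group's range. Chance alone gives about 1 such case in 20 groups, and 98 groups were examined. *Slc13a3*, the basolateral dicarboxylate carrier, read 10.98 in Cd151+/+ mouse 4, against 8.76 to 8.86 in the other 3 Cd151+/+ mice. *Slc39a5*, a zinc importer, read 9.88 in the same mouse, against 8.19 to 8.44. *Slc30a5*, a zinc exporter of the secretory pathway, read 11.16 in Cd151-/- mouse 4, against 10.41 to 10.48 in the other 3 Cd151-/- mice. Cd151+/+ mouse 4 also had the highest mean deviation of its genotype for the 9 proximal tubule markers detected in both genotypes (0.31), and Cd151-/- mouse 4 the highest of all 8 (1.19), and the part of this in the 3 values was not tested.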

How the results depend on the processing

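No member passed adjustment over all genes under any alternative run. The count of members higher at an unadjusted limma p of 0.05, 1 as reported, was 0 without background correction, without the detection filter and in the equal-variance test, 2 with a trended and robust variance and with the array set as a block (5.21% of all genes), and 11 with array weights, where 15.4% of all genes were higher. The count lower, also 1, was 0 after scaling to the 75th percentile, 2 with a trended and robust variance and with the mean over probes, and 4 with array weights, where 16.4% of all genes were lower. Leaving out each mouse in turn gave 0 to 5 higher and 0 to 4 lower members, with 5 higher without Cd151+/+ mouse 4 (3.09% of all genes), 4 higher without Cd151-/- mouse 3 (4.43%) and 4 lower without Cd151-/- mouse 2 (2.44%), and a median over all members of -0.016 (without Cd151-/- mouse 4) to 0.15 (without Cd151+/+ mouse 4). The median of the 9 proximal tubule members ranged from 0.002 to 0.68. The mouse numbers were not treated as pairs in the reported fit. Same-numbered mice deviated from their group means with correlations of -0.58, -0.40, -0.53 and -0.01. Each such pair lay on arrays of opposite background, so these values cannot decide whether the numbers paired the animals. With the mouse number as a block 4 members were higher, with 1.55% of all genes, and 1 lower.

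Over the 36 genes followed, 604 of 717 alternative values kept their direction and their side of an unadjusted p of 0.05, 48 fell behind it, 43 passed it and 22 changed sign. With array weights *Slc12a2* was at 0.029, *Slc12a3* at 0.21 and *Slc4a4* at 0.079, without background correction *Slc4a4* was at 0.0049, and after scaling to the 75th percentile *Slc4a9* was at -0.13. With 1 mouse left out at a time the differences that changed sign ranged from -0.26 to 0.078 for *Slc12a2*, -0.36 to 0.015 for *Slc12a3*, -0.016 to 0.68 for *Slc26a1*, -0.14 to 0.35 for *Slc26a4*, -0.20 to 0.11 for *Slc4a4*, -0.18 to 0.22 for *Slc4a9* and -0.078 to 0.33 for *Slc9a3r1*. The causes were not tested. Members near background, such as *Slc26a7*, *Slc4a4* and *Slc4a9*, were read with little signal above it, and a member that no array detected may still be expressed below the level these arrays can read.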

Other observations

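Markers of the glomerular cell types other than podocytes were also read. Of 4 tested endothelial markers *Kdr* was detected in Cd151+/+ mice only, the other 3 had negative differences with a median of -0.35, and none passed an unadjusted p of 0.05 with all 8 mice weighted equally and no block. Over all 4 the median was -0.32, which ranged from -0.52 to -0.17 with 1 mouse left out. *Emcn*, the brightest of the list, differed by -0.13 (SE 0.25). *Ehd3*, a marker of glomerular endothelium, read 13.99, 14.02, 13.31 and 13.33 in Cd151+/+ mice and 12.40, 12.92, 13.99 and 12.82 in Cd151-/- mice, a difference of -0.63 (SE 0.34, exact permutation p = 0.143). With the array set as a block *Ehd3* was lower at an unadjusted p of 0.05, as were 5.63% of all genes, and also with array weights (-1.11) and without Cd151-/- mouse 3 (-0.95). The 4 mesangial and smooth muscle markers had a median of -0.44, with 1 positive and 3 negative, which ranged from -0.62 to -0.20 with 1 mouse left out. *Acta2*, smooth muscle actin, was higher by 0.71 (SE 0.26) at an unadjusted limma p of 0.0185, and *Pdgfrb*, the receptor that marks mesangial cells, was lower by -0.74 (SE 0.32) at an unadjusted limma p of 0.0399, each with an adjusted p of 0.918. *Myh11*, the smooth muscle myosin, differed by -0.52 and *Des*, desmin, by -0.35. For *Acta2* and *Pdgfrb* the exact permutation p-values were 0.0571 and 0.114. *Acta2* no longer passed an unadjusted p of 0.05 without Cd151+/+ mouse 2 or Cd151-/- mouse 1 or 2, or with the mean over its probes, and *Pdgfrb* passed only without Cd151+/+ mouse 4 or Cd151-/- mouse 3 among the 8 mice left out in turn, and not after scaling to the 75th percentile, with the mouse number as a block or in the equal-variance test. *Pdgfrb*, *Ehd3*, *Car4*, *Coro1a*, *Cd68*, *Myh11* and *Des* were named after their values were seen. *Acta2* was positive within both array sets, at 0.38 and 1.04, and *Pdgfrb* negative within both, at -0.75 and -0.72. The 4 tested leukocyte markers had a median of -0.19 (-0.30 to -0.10 with 1 mouse left out), and the 3 distal tubule markers of -0.33 (-0.51 to -0.13). *Lyzs* and *Pvalb*, the brightest of each list, differed by -0.14 and -0.48. *Cd68*, of macrophages, differed by 0.29, and *Coro1a*, coronin of leukocytes, by -0.34 (SE 0.21, limma adjusted p = 0.918, exact permutation p = 0.0286). The groups did not overlap for *Coro1a*, which held in the lower direction for 1.34% of all genes. The *Coro1a* difference ranged from -0.40 to -0.22 with 1 mouse left out, and was -0.23 with the mean over its probes. It passed an unadjusted limma p of 0.05 without the detection filter and with array weights (-0.55), where 16.4% of all genes were lower.

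Among the acid-base partners of the carriers, 8 of 11 had positive differences and none passed an unadjusted limma p of 0.05. Their median was 0.62 within the lower-background but 0.06 within the higher-background arrays. Their mean deviations were -0.21, -0.42, -0.11 and 0.345 in Cd151+/+ mice, and 0.32, -0.18, -0.25 and 0.51 in Cd151-/- mice. Cd151-/- mouse 4 was thus the highest of all 8. *Car4*, the membrane-bound carbonic anhydrase of the proximal tubule, read 6.42, 6.25, 7.09 and 7.87 in Cd151+/+ mice and 8.06, 7.46, 6.86 and 8.21 in Cd151-/- mice, with Cd151+/+ mice 1 and 2 the lowest, as for *Slc34a1* and *Slc34a3*. Its difference was 0.74 (SE 0.40, exact permutation p = 0.171), and without Cd151+/+ mouse 4 (1.05) or Cd151-/- mouse 3 (1.00) it passed an unadjusted p of 0.05.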
